A study of Mus musculus with 12 samples.

Results

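The 9 chemokine receptor genes described here, *Cxcr3*, *Cxcr4*, *Cxcr5*, *Cxcr6*, *Ccr2*, *Ccr4*, *Ccr6*, *Ccr9* and *Cx3cr1*, were chosen by name as receptors known from CD8+ T cells, and they are 9 of the 25860 genes listed for RNA-seq. Chromatin accessibility around them was taken from 39 of the 23932 ATAC-seq peaks listed, those annotated to 1 of the 9 genes. RNA-seq and ATAC-seq had been carried out in parallel on CD8+ T_prog_ cells, stem-like progenitors sorted from the pancreatic lymph node (pLN), to ask which genes and regulatory elements depend on the histone demethylase UTX. Each assay had 3 libraries per genotype, named *NOD-TCR 8.3 WT* or *NOD-TCR 8.3 UTX TCD* by the labels. Both groups were female nonobese diabetic mice whose T cells carry the 8.3 T cell receptor transgene, which recognizes the β cell antigen IGRP. UTX TCD mice carried floxed *Kdm6a* (UTX) alleles and *Lck*-Cre, which deletes in T cells from the thymus onward, and WT mice were littermates with the floxed alleles and no Cre. The age of the mice for these assays was not given in the sources used here. For ATAC-seq the methods give 3 mice and 3 biological replicates per genotype, and for RNA-seq the sources used here give 3 per group without saying that each library came from a separate animal. The sample labels describe the gate as Ly108 without CXCR6 and the methods describe it as Ly108+CD39-, so the product of 1 of the 9 genes, *Cxcr6*, may itself have been used to choose the cells.

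Chemokine receptors are G protein-coupled receptors that read gradients of small secreted proteins and thereby set where a T cell goes. Receptors such as CXCR4 and CXCR5 guide cells within and between lymphoid organs, CXCR3, CXCR6, CCR2 and CX3CR1 guide activated cells into inflamed tissue, and CCR9 and CCR6 are best known from the gut and its lymphoid tissue. In autoimmune diabetes, T cells primed in the pLN must leave it and enter the islets, where ligands such as those of CXCR3 are made.

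RNA-seq values were normalized counts, the reads of a gene divided by 1 size factor per library. WT libraries held 146456724, 144503203 and 193568919 counted reads and UTX TCD libraries 61512402, 175462433 and 187275082, so UTX TCD library 1 was the shallowest. In that library 1 read was worth 2.25 normalized counts, against 0.737 in UTX TCD library 3. *Kdm6a*, on chromosome X, was counted at 28365, 28949 and 29172 in WT and at 24158, 24792 and 24579 in UTX TCD cells. The groups did not overlap but were little apart, and since a count covers a whole gene, the deleted exons could not be looked at separately. The markers of CD8 T cells were present in every library, with *Cd8a* between 270012 and 313000 normalized counts, and none of the 6 genes of that list passed the limits used for a call, an adjusted p under 0.05 from limma and an absolute log2 fold change over 0.5. Of these 6, 5 passed the adjusted p alone, 4 lower and 1 higher in UTX TCD cells, from -0.37 for *Cd8b1* to 0.17 for *Cd3e*, beside 23.2% of all genes tested that passed the adjusted p but not the fold limit. Over all alternatives the adjusted p of *Cd3e* lay on both sides of the threshold, from 0.0128 to 0.155 in limma, edgeR or DESeq2.

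The levels of the 9 receptors spanned several orders of magnitude. Per kilobase of exon, *Cxcr4* was highest in WT cells at 41151 ± 7593 normalized counts (SD, n = 3), followed by *Ccr9* at 8867 ± 1007 (SD, n = 3) and *Cxcr6* at 6232 ± 1111 (SD, n = 3). *Cxcr5* and *Cxcr3* came next, at 775 ± 76.2 and 760 ± 138 normalized counts per kilobase (SD, n = 3), and their WT libraries overlapped. *Ccr4* stood at 226 ± 9.24 per kilobase (SD, n = 3). *Ccr6*, *Ccr2* and *Cx3cr1* were near the bottom of the range, at 8.06 ± 0.761, 5.62 ± 0.113 and 2.48 ± 0.819 normalized counts per kilobase (SD, n = 3). No other neighbors in the WT order overlapped. In UTX TCD cells the order was the same except at the low end, where *Ccr2* (19.4 ± 14.01 per kilobase, SD, n = 3) came before *Ccr6* (13.3 ± 8.01 per kilobase, SD, n = 3). The UTX TCD libraries of *Ccr2* overlapped with those of *Ccr6* and of the next gene above, *Ccr4* (46.4 ± 12.8 per kilobase, SD, n = 3). *Cxcr5* and *Cxcr3*, level in WT cells, were apart in UTX TCD cells, at 2137 ± 383 and 934 ± 56.2 normalized counts per kilobase (SD, n = 3).

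Testing was limited to genes whose normalized counts averaged 10 or more over the 6 libraries, and used limma on log2(normalized count + 1), and a gene was called at a Benjamini-Hochberg adjusted p under 0.05 over all 14459 genes tested and an absolute log2 fold change over 0.5, given as UTX TCD over WT. Of the 9 receptors, 8 passed the filter and 5 were called, beside 17.6% of all genes tested. *Cxcr5* and *Ccr2* were higher in UTX TCD cells, 2 of 8 beside a background of 10.5%, and *Cxcr4*, *Cxcr6* and *Ccr4* were lower, 3 of 8 beside 7.05%. The remaining 3 tested receptors, *Cxcr3*, *Ccr6* and *Ccr9*, were not called, and *Cx3cr1* was too low to be tested. The groups did not overlap for 7 of the 8, beside 51.9% of all genes tested. The median log2 fold change of the 8 was -0.00273, beside -0.000181 over all genes tested. The receptors were named with earlier results of these libraries known, so these counts describe the list. On this log scale the change of a gene with low counts is understated, and for any single gene 3 libraries against 3 allow no exact permutation p below 0.1. In these bulk samples fewer cells with a receptor and less RNA per cell cannot be told apart.

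**Figure D1:**
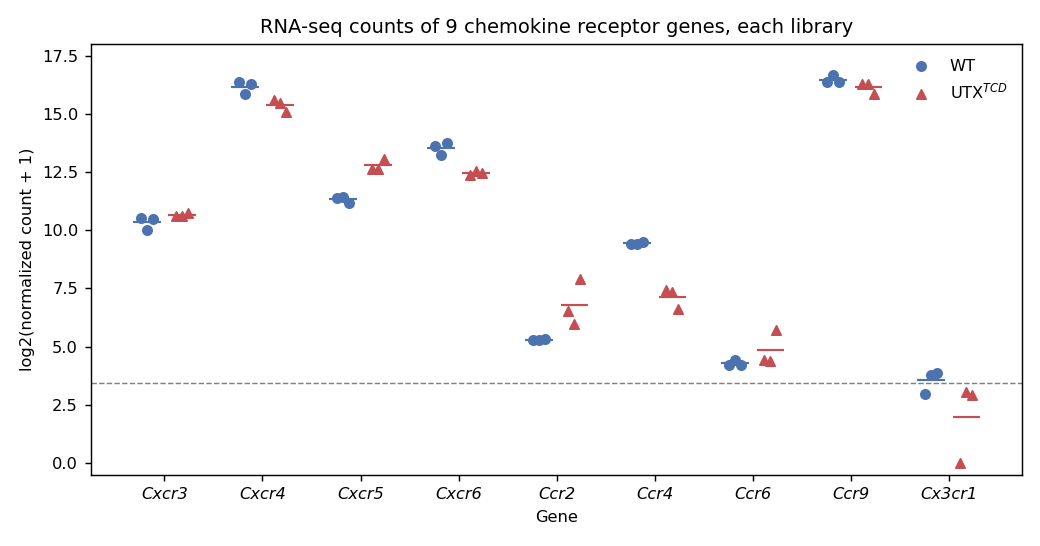
Normalized RNA-seq counts of the 9 receptor genes on a log2(normalized count + 1) axis, with 1 point for each library (circles WT, triangles UTX TCD, 3 each) and a horizontal line at the mean of each genotype on that scale. The dashed line marks a count of 10, the minimum mean over the 6 libraries for testing. *Cxcr5* and *Ccr2* lie higher and *Cxcr4*, *Cxcr6* and *Ccr4* lower in UTX TCD cells, and 1 UTX TCD library stands above the rest for *Ccr2* (239) and *Ccr6* (52.3).

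CXCR5 binds CXCL13 and brings cells to B cell follicles, and it is also carried by stem-like CD8+ T cells. *Cxcr5* (chromosome 9, 44511787 to 44526444, GRCm38) was counted at 2658, 2788 and 2298 in WT and at 6429, 6344 and 8593 in UTX TCD cells. Every UTX TCD library lay well above every WT library, with UTX TCD library 3 the highest. The ratio of the means was 2.76 and the log2 fold change 1.45 (SE 0.12, limma adjusted p = 2.63e-05). Its 3′ end runs into *Bcl9l* on the opposite strand, and since the strand setting of the counting was not given, reads in that stretch cannot be assigned. *Bcl9l* itself was counted at 31649 ± 3519 in WT and 28726 ± 1457 in UTX TCD cells (SD, n = 3) and its groups overlapped.

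In ATAC-seq a transposase cuts accessible DNA and tags the cut ends, and the list held only peaks with a difference between the genotypes at an FDR under 0.05. The values used here are the authors' mean log2 concentration of each genotype, log2 of the normalized reads in a peak, over 3 libraries with no spread given, so the differences carry no test. *Cxcr5* had 6 listed peaks, of which 5 were more accessible in UTX TCD cells, beside 68.8% of all listed peaks. The largest difference lay 28665 bases upstream of the start site, at chr9:44554909-44555309, between genes in the authors' annotation, where the mean log2 concentration was 5.71 in WT and 7.73 in UTX TCD cells, a difference of 2.02. The promoter peak, chr9:44526368-44526768, went from 9.75 to 10.25, and a peak in intron 1, 8892 bases into the gene, from 9.98 to 10.64. A single peak 11611 bases upstream was less accessible, at 9.95 in WT and 9.31 in UTX TCD cells. Within 50 kb of the gene, 3 more listed peaks were annotated to *Bcl9l*, and all of these were less accessible, by -0.27 to -1.27.

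CXCR4 is the receptor for CXCL12 and holds lymphocytes in bone marrow and lymphoid stroma. *Cxcr4* (chromosome 1, 128588199 to 128592299) was counted at 85023, 58900 and 79282 in WT and at 49428, 45881 and 34749 in UTX TCD cells. The groups did not overlap, and WT library 2 was the lowest of its group. The ratio of the means was 0.583 and the log2 fold change -0.78 (SE 0.15, limma adjusted p = 0.0037). Of its 17 listed peaks 13 were more accessible in UTX TCD cells, a share close to the 68.8% among all listed peaks.

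All 17 peaks of *Cxcr4* lay between genes and none at its promoter, and their direction followed their position. The 5 peaks within 50 kb of the start site were all more accessible, with differences from 0.40 to 0.74. The next 4, between 112910 and 126263 bases upstream, at chr1:128705009 to chr1:128718762, were all less accessible, with differences from -0.32 to -1.17. The 8 peaks farther out, up to 283185 bases upstream, were again all more accessible, with differences from 0.29 to 1.48. The largest of them, chr1:128808593-128808993, had a mean log2 concentration of 6.52 in WT and 8.01 in UTX TCD cells. HOMER assigns a peak to its nearest promoter, so the assignment of distant peaks to *Cxcr4* rests on position alone.

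**Figure D2:**
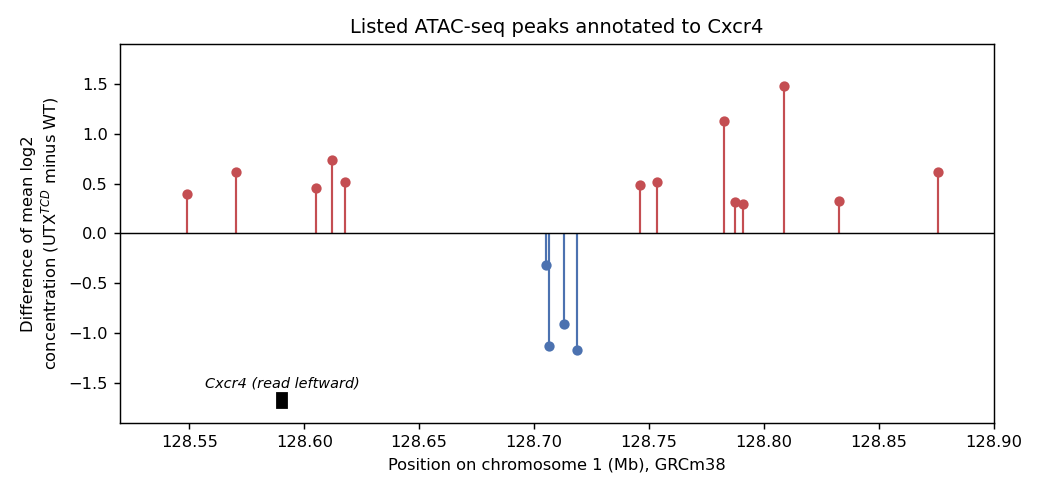
Difference of the authors' mean log2 concentration (UTX TCD minus WT) for each of the 17 listed ATAC-seq peaks annotated to *Cxcr4*, drawn at the peak's position on chromosome 1 (Mb, GRCm38), with the gene as a black box. The 4 less accessible peaks stand together, with 5 more accessible peaks on the side of the gene and 8 on the far side.

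CXCR6 binds CXCL16 and marks effector and tissue-resident CD8+ T cells. *Cxcr6* (chromosome 9, 123806477 to 123811754) was counted at 12757, 9619 and 13724 in WT and at 5286, 5994 and 5695 in UTX TCD cells. The UTX TCD libraries were close together, and the lowest WT library was well above them. The log2 fold change was -1.07 (SE 0.12, limma adjusted p = 0.000131). The transcript was abundant in both genotypes even though the labels give absence of CXCR6 protein as the gate, and a difference in how the gate fell on each genotype was not tested. *Cxcr6* lies within *Fyco1*, which is read from the opposite strand. *Fyco1* was counted at 27554 ± 3047 in WT and 28146 ± 182 in UTX TCD cells (SD, n = 3), with overlapping groups. The only listed peak annotated to *Cxcr6*, chr9:123791177-123791577, lay 15100 bases upstream of its start in the 3′ UTR of *Fyco1* and went from a mean log2 concentration of 7.54 in WT to 6.57 in UTX TCD cells.

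CXCR3, the receptor for the interferon-induced ligands CXCL9, CXCL10 and CXCL11, directs activated T cells to inflamed sites, islets among them. *Cxcr3* (chromosome X, 101731535 to 101734147) was counted at 1482, 1042 and 1422 in WT and at 1575, 1549 and 1729 in UTX TCD cells. The groups did not overlap, but the gap between the highest WT and the lowest UTX TCD library was small and WT library 2 was low. The log2 fold change of 0.31 (SE 0.13) did not pass, with an adjusted p of 0.0809 from limma. Both listed peaks of *Cxcr3* were more accessible in UTX TCD cells. Its promoter peak, chrX:101733941-101734341, went from a mean log2 concentration of 7.76 to 8.65, and a peak 3220 bases upstream from 7.77 to 8.50. *Ogt*, which encodes O-GlcNAc transferase and lies within 50 kb of *Cxcr3*, was counted at 87671 ± 3137 in WT and 115082 ± 793 in UTX TCD cells (SD, n = 3), with log2 fold change 0.39 (SE 0.04, limma adjusted p = 0.000157) that stayed under the limit of 0.5.

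CX3CR1 binds fractalkine and marks cytotoxic effector T cells in blood. *Cx3cr1* (chromosome 9, 120048683 to 120068296) had 7, 13 and 18 reads in the WT libraries, against 0, 9 and 9 in those of UTX TCD. At such counts the groups overlapped once scaled, at 6.93, 12.8 and 13.7 normalized counts in WT and at 0, 7.21 and 6.63 in UTX TCD cells. The 0 came from the shallowest library, where 3 reads would be 6.75 normalized counts, so this 0 does not show absence. Without the filter on low values the log2 fold change was -1.56 (SE 0.78), with an adjusted p of 0.176 from limma. Its promoter was nevertheless among the listed peaks. The promoter peak, chr9:120068087-120068487, went from a mean log2 concentration of 7.60 in WT to 6.97 in UTX TCD cells, and a peak 5088 bases upstream from 7.63 to 6.92. Of the 4 further listed peaks within 50 kb, annotated to *Xirp1* or *Ccr8*, 3 were less accessible, the largest by -1.87.

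CCR2 binds CCL2 and related ligands and is best known from monocytes and activated T cells. *Ccr2* (chromosome 9, 124101918 to 124109140) was counted at 37.6, 37.5 and 38.9 in WT and at 92.2, 61.7 and 239 in UTX TCD cells. The WT libraries were almost identical, while UTX TCD library 3 stood far above the other UTX TCD libraries, both of which were above WT. The log2 fold change was 1.52 (SE 0.43, limma adjusted p = 0.0204). Without UTX TCD library 3 it was 0.97 and still called, with an adjusted p of 0.0222 from limma. Without WT library 1 or WT library 2 the call was lost, at adjusted p of 0.0537 and 0.0531 from limma, with log2 fold changes of 1.51 in both cases, and over all alternatives the adjusted p ranged from 0.000406 to 0.0537. The peak 1647 bases upstream, chr9:124100336-124100736, was more accessible, at 8.52 in WT and 9.02 in UTX TCD cells. How reads that match more than 1 gene were counted was not given in the sources used here.

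CCR4 binds CCL17 and CCL22 and is typical of skin-homing and regulatory T cells. *Ccr4* (chromosome 9, 114490316 to 114505476) was counted at 682, 682 and 731 in WT and at 171, 162 and 98.0 in UTX TCD cells. The WT libraries lay close together, and the highest UTX TCD library was far below the lowest of WT. The ratio of the means was 0.206 and the log2 fold change -2.31 (SE 0.20, limma adjusted p = 3.82e-05), the largest in size among the 8 tested receptors. Of its 5 listed peaks 4 were less accessible in UTX TCD cells. The peak 19792 bases downstream of the start site, beyond the end of the gene at chr9:114476552-114476952, went from a mean log2 concentration of 6.98 to 4.48, a difference of -2.51. The peak at 7957 bases went from 6.95 to 5.75, and the peak at 33782 bases, within *Glb1*, from 8.79 to 7.91. *Glb1*, the gene of lysosomal β-galactosidase, was counted at 4496 ± 576 in WT and 3235 ± 114 in UTX TCD cells (SD, n = 3), with log2 fold change -0.47 (SE 0.09, limma adjusted p = 0.00309) that was called only without WT library 2, at -0.58.

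CCR6, the receptor for CCL20, is carried by B cells and by interleukin-17-producing T cells. *Ccr6* (chromosome 17, 8236041 to 8258519) was counted at 17.8, 20.7 and 17.5 in WT and at 20.2, 20.0 and 52.3 in UTX TCD cells. The groups overlapped, and only UTX TCD library 3 stood apart. The log2 fold change was 0.55 (SE 0.41, limma adjusted p = 0.321) and fell to 0.10 without UTX TCD library 3. No peak of *Ccr6* was listed, and none lay within 50 kb of it.

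CCR9 binds CCL25 and leads T cells to the small intestine, and it is also high in thymocytes and recent thymic emigrants. *Ccr9* (chromosome 9, 123767211 to 123783457) was counted at 85116, 102905 and 84897 in WT and at 79849, 79986 and 59982 in UTX TCD cells. The UTX TCD libraries lay below those of WT by a narrow margin, with UTX TCD library 3 the lowest. The log2 fold change was -0.32 (SE 0.12, limma adjusted p = 0.0562), and the groups overlapped when each library was scaled to the same sum. Of its 5 listed peaks 4 were less accessible in UTX TCD cells. The promoter peak, chr9:123766975-123767375, went from a mean log2 concentration of 10.60 to 10.28, and the peak in the 3′ UTR, chr9:123782270-123782670, from 8.11 to 7.46, the largest difference at this gene. A peak 3290 bases upstream was more accessible, at 11.02 in WT and 11.36 in UTX TCD cells.

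**Figure D3:**
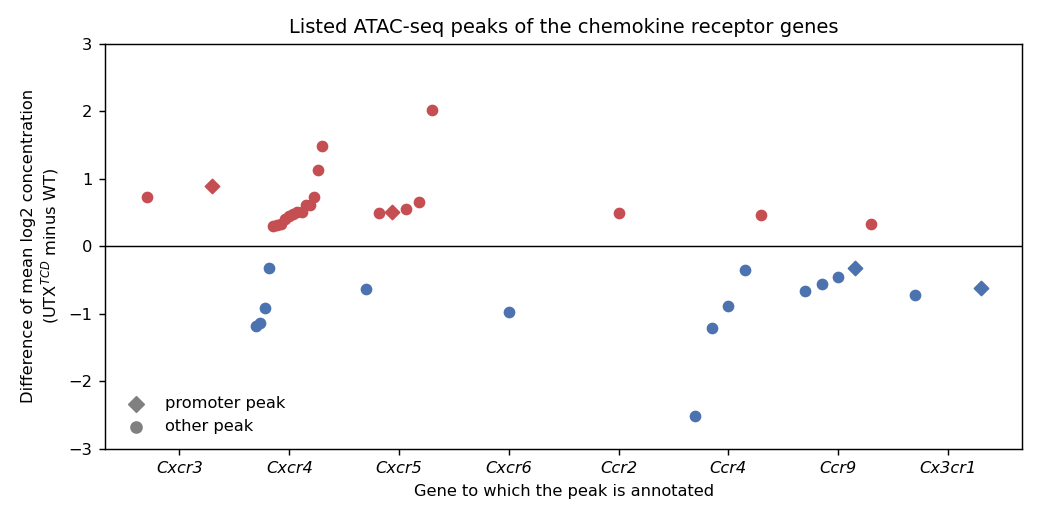
Difference of the authors' mean log2 concentration (UTX TCD minus WT) for each of the 39 listed ATAC-seq peaks annotated to a receptor gene, ordered by size within a gene, with diamonds for promoter peaks and circles for the rest. Peaks of *Cxcr3* and *Ccr2* lie above 0, peaks of *Cxcr6* and *Cx3cr1* below 0, and the other genes have peaks on both sides, from -2.51 at *Ccr4* to 2.02 at *Cxcr5*.

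Together, 23 of the 39 peaks were more accessible in UTX TCD cells and 16 less, beside 68.8% more accessible among all listed peaks. With the 17 peaks of *Cxcr4* making up much of the total, the count depends on which peaks are taken. Among all listed peaks within 50 kb of a receptor gene, whatever their annotation, 21 were more and 24 less accessible. There were 4 promoter peaks, more accessible at *Cxcr3* and *Cxcr5* and less accessible at *Ccr9* and *Cx3cr1*.

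Of the 9 receptor genes 6 lie on chromosome 9, and *Ccr9*, *Cxcr6* and *Ccr2* belong to 1 cluster with *Xcr1*, *Ccr1* and *Ccr3*. In the window from 50 kb before *Ccr9* to the end of *Ccr2* (chr9:123717211-124109140), which was chosen after its values were seen, 18 peaks were listed, 2 more and 16 less accessible in UTX TCD cells. From the start of the window to the end of *Xcr1* 9 of 10 were less accessible, and so were all 6 between there and a point 50 kb before *Ccr2*. Of the 2 peaks from that point on, the first was less accessible and the peak upstream of *Ccr2* more. In RNA, *Cxcr6* was lower and *Ccr2* higher, as given above. *Xcr1* was counted at 149 ± 7.43 in WT and 161 ± 6.51 in UTX TCD cells (SD, n = 3), with overlapping groups. *Ccr1* and *Ccr3* had at most 12 reads in any library.

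**Figure D4:**
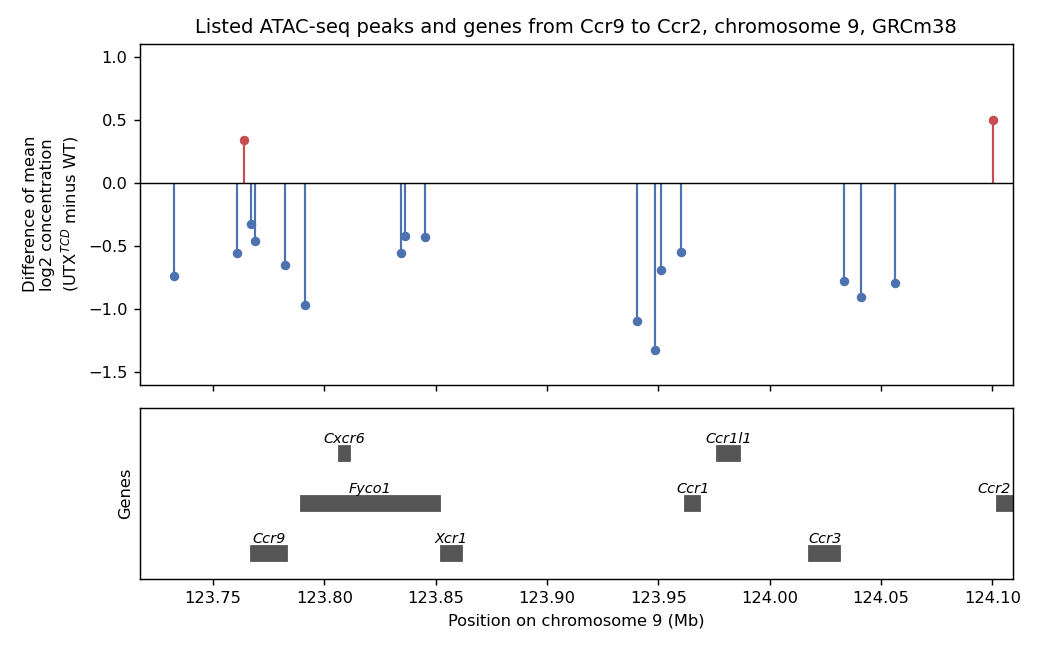
Upper panel, difference of the authors' mean log2 concentration (UTX TCD minus WT) for the 18 listed ATAC-seq peaks from 50 kb before *Ccr9* to the end of *Ccr2*, by position on chromosome 9 (Mb, GRCm38). The lower panel shows genes of the window to scale, and of the 18 peaks the 16 less accessible ones lie below 0 and the 2 more accessible ones, before *Ccr9* and before *Ccr2*, above 0.

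Sequences are shown for the 3 promoters that have both a listed peak and an entry in the RefSeq promoter table (GRCm38.p6), and for the centers of the 3 peaks between genes with the largest gains or losses at *Cxcr5*, *Cxcr4* and *Ccr4*. The promoter table held 8 of the 9 receptor genes, all but *Cxcr5*. Both strands were searched for CTTTGA (TCF/LEF), TTCNNNGAA (STAT), TGTGGT (RUNX) and TGANTCA (AP-1), and every match is in capitals. The promoters are the 250 bases before the start site, on the strand of the gene, at chrX:101734148-101734397 (minus) for *Cxcr3*, chr9:123766961-123767210 (plus) for *Ccr9* and chr9:120068297-120068546 (minus) for *Cx3cr1*.
Cxcr3 promoter: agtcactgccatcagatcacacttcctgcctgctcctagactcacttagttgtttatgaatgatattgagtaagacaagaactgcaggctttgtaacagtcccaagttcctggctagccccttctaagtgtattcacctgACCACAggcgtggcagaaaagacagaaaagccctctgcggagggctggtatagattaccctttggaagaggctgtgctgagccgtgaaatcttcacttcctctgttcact
Ccr9 promoter: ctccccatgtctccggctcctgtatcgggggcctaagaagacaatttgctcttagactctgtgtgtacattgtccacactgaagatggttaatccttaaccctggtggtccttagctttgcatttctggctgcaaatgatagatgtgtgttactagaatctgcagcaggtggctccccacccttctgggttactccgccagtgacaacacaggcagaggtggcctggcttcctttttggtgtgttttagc
Cx3cr1 promoter: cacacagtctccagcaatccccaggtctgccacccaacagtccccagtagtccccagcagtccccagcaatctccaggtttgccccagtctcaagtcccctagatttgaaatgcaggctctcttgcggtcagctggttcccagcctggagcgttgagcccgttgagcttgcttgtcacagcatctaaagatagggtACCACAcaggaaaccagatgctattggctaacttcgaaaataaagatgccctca
The promoters of *Cxcr3*, more accessible in UTX TCD cells, and of *Cx3cr1*, less accessible, each held 1 RUNX match, and that of *Ccr9* held no match to any of the 4 motifs. By comparison, 14.2% of 27025 promoters of the same length held a RUNX match, 14.1% a TCF/LEF match, 7.18% a STAT match and 6.87% an AP-1 match.

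The peak centers are the middle 201 bases of each peak on the plus strand, at chr9:44555009-44555209 for *Cxcr5*, chr1:128808693-128808893 for *Cxcr4* and chr9:114476652-114476852 for *Ccr4*.
Cxcr5 peak center: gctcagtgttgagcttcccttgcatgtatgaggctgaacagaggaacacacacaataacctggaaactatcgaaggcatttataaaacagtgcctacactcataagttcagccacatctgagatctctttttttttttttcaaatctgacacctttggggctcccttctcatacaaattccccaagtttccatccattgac
Cxcr4 peak center: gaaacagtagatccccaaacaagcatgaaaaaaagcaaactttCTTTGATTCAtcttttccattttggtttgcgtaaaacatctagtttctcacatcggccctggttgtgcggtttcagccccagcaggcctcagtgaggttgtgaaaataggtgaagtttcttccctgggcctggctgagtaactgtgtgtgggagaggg
Ccr4 peak center: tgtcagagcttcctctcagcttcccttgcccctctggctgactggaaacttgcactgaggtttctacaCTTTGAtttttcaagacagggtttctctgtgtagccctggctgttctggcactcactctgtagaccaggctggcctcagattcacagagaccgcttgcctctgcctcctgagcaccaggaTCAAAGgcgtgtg
The center of the *Ccr4* peak held 2 TCF/LEF matches, and that of the *Cxcr4* peak held 1 TCF/LEF and 1 AP-1 match that overlap in 1 run of capitals. The center of the *Cxcr5* peak held no match. Among the same 201 middle bases of 23907 listed peaks, 19.1% held a TCF/LEF match, 28.2% a RUNX match, 5.89% a STAT match and 7.60% an AP-1 match. Over each whole peak, 17 of the 39 receptor peaks held a TCF/LEF match, 23 a RUNX match, 6 a STAT match and 7 an AP-1 match, beside 30.6%, 39.7%, 11.9% and 12.8% of 23907 listed peaks of the same width. By direction, a TCF/LEF match was held by 11 of the 23 more accessible and 6 of the 16 less accessible receptor peaks, beside 29.9% and 32.0% of all listed peaks of each direction. A RUNX match was held by 16 and 7, beside 35.5% and 48.8%, a STAT match by 3 and 3, beside 11.8% and 12.01%, and an AP-1 match by 7 and 0, beside 11.6% and 15.5%. These differences were not tested. A match is only a description of the letters.

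Of 14 other chemokine receptors, 7 were tested, and 2 were called higher and 1 lower, beside 10.5% and 7.05% of all genes tested. *Ccrl2*, an atypical receptor that binds chemerin, was counted at 16.8, 28.6 and 10.7 in WT and at 92.2, 76.9 and 114 in UTX TCD cells, with log2 fold change 2.36 (SE 0.36, limma adjusted p = 0.000936). *Ccr10*, a skin-homing receptor, was low throughout, at 9.91, 13.8 and 18.3 in WT and at 36.0, 24.8 and 48.7 in UTX TCD cells. Its log2 ratio of UTX TCD over WT was 1.31 (SE 0.37, limma adjusted p = 0.0209), and the call was lost without WT library 1, UTX TCD library 1 or UTX TCD library 3, at adjusted p of 0.0782, 0.0526 and 0.0636 from limma. *Cxcr2*, the receptor for neutrophil-attracting chemokines, was counted at 1040, 1034 and 1017 in WT and at 655, 605 and 633 in UTX TCD cells, with a log2 fold change of -0.71 (SE 0.08, limma adjusted p = 0.000173). *Ccr7*, which retains T cells in lymph nodes, was counted at 51976 ± 3897 in WT and 48980 ± 1525 in UTX TCD cells (SD, n = 3), with overlapping groups.

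Of 15 ligands of the 9 receptors, 5 were tested and 1 was called, a share close to the 17.6% of all genes tested. *Cxcl10*, a ligand of CXCR3, was counted at 147, 329.7 and 170.1 in WT and at 724, 689 and 709 in UTX TCD cells. The UTX TCD libraries were all above those of WT, and the log2 fold change was 1.80 (SE 0.26, limma adjusted p = 0.000669). *Ccl25*, the ligand of CCR9, was counted at 456 ± 36.7 in WT and 594 ± 47.0 in UTX TCD cells (SD, n = 3), and its log2 fold change of 0.38 stayed under the limit. *Ccl2*, *Ccl7* and *Ccl20* had no read in any library.

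Below the receptors, 29 of 32 signaling genes were tested, and 2 were higher and 2 lower, so 4 of 29 were called beside 17.6% of all genes tested. *Rgs2*, a regulator that shortens G protein signals, fell from 2308, 2033 and 2359 in WT to 373, 357 and 341 in UTX TCD cells, with log2 fold change -2.64 (SE 0.09, limma adjusted p = 1.56e-07). *Dock2*, the Rac activator that lymphocytes need to migrate toward chemokines, was counted at 133816, 120914 and 137054 in WT and at 81972, 83395 and 78014 in UTX TCD cells, with log2 fold change -0.69 (SE 0.06, limma adjusted p = 2.96e-05). *Grk5*, a kinase that turns off activated receptors, and *Tiam1*, another Rac activator, were higher, with log2 fold changes of 0.82 (SE 0.07) and 0.61 (SE 0.11). A further 12 genes of this list passed the adjusted p but not the fold limit, beside 23.2% of all genes tested. Of these 2 were higher, *Rgs3* at a log2 fold change of 0.43 and *Pik3r5* at 0.32, and 10 lower, among them *Rac2*, at -0.38, and *Arrb2*, which encodes β-arrestin 2, at -0.30, with an adjusted p of 0.067 from limma without WT library 1. The median log2 fold change of the list was -0.10.

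Of 13 transcription factors known to act on chemokine receptor genes, all were tested and 4 were called, all higher, beside 10.5% of all genes tested. A further 5 passed the adjusted p but not the fold limit, 3 higher and 2 lower, beside 23.2%. *Tbx21* (T-bet), which promotes *Cxcr3*, was counted at 646, 877 and 589 in WT and at 1404, 1420 and 1872 in UTX TCD cells, with log2 fold change 1.16 (SE 0.16, limma adjusted p = 0.00057). UTX TCD library 3 was the highest, as it was for *Cxcr3*, *Cxcr5*, *Ccr2* and *Ccr6*. *Bhlhe40* had a log2 fold change of 1.44 (SE 0.33, limma adjusted p = 0.00778). *Eomes*, at 0.62 (SE 0.12, limma adjusted p = 0.00388), was not called without UTX TCD library 3, where the log2 fold change was 0.46. *Klf2*, which maintains the exit of T cells from lymph nodes, was counted at 35837 ± 1158 in WT and 26133 ± 1236 in UTX TCD cells (SD, n = 3), and its log2 fold change of -0.46 stayed under the limit. *Bcl6*, linked to *Cxcr5* in follicular T cells, was counted at 4472 ± 144 in WT and 4968 ± 59.6 in UTX TCD cells (SD, n = 3), with log2 fold change 0.15.

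Several of the 9 receptors are also carried by other cells of a lymph node, so the markers of these were examined. Beside each count of markers called, the share of all genes tested is 17.6%. The 6 B cell markers summed to 2957, 2442 and 2805 normalized counts in WT cells, against 1226, 1083 and 1008 in UTX TCD cells. *Cd79b* was the most abundant and fell, with a log2 fold change of -1.98 (SE 0.15, limma adjusted p = 1.47e-05), while *Ms4a1* was called higher, with 73.0 in UTX TCD library 3 against 20.2 and 29.6 in the other UTX TCD libraries. *Ms4a1* lost its call without WT library 1, WT library 3, UTX TCD library 2 or UTX TCD library 3, at adjusted p of 0.119, 0.0889, 0.0681 and 0.112 from limma. *Pax5* and *Ebf1*, which define B cells, had at most 15 and 10 reads in any library. *Cxcr5* and *Ccr6* were highest in that same UTX TCD library 3, and the part of B cells in their values was not tested.

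The 6 markers of monocytes and macrophages, which carry *Ccr2*, summed to 778, 799 and 612 in WT cells, against 1039, 788 and 976 in UTX TCD cells, mostly through *Cd68*, which passed the adjusted p but not the fold limit at a log2 fold change of 0.43 with all libraries. It was called without UTX TCD library 2, at 0.57, and missed the adjusted p without any 1 of the other 5 libraries, at 0.0529 to 0.12 in limma. Of these 6, 3 were tested, *Csf1r* was called lower at 27.7, 25.7 and 19.1 in WT and at 4.50, 5.61 and 8.11 in UTX TCD cells, and *Cd14* had at most 4 reads. The 5 CD4 T cell markers, some of whose carriers express *Ccr4*, summed to 961, 976 and 872 in WT cells, against 936, 854 and 1147 in UTX TCD cells, with *Il2ra* the most abundant. Of them *Cd4* and *Zbtb7b* were called lower, with log2 fold changes of -0.74 (SE 0.24) and -1.85 (SE 0.44), as was *Ccr4*, and their part in its value was not tested. The call of *Cd4* was lost in DESeq2, with no filter on low values, with libraries scaled to equal sums and without any 1 of the libraries except UTX TCD library 2, with adjusted p from 0.0543 to 0.101 over those limma and DESeq2 fits. *Foxp3*, the factor of regulatory T cells, was counted at 275 ± 41.1 in WT and 283 ± 21.4 in UTX TCD cells (SD, n = 3), with overlapping groups.

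Markers of γδ T cells, some of which carry *Ccr6* and *Ccr2*, were listed for 3 of 4 genes. *Trdc* was abundant in both genotypes, at 60830 ± 3676 in WT and 54130 ± 2937 in UTX TCD cells (SD, n = 3) with a log2 fold change of -0.17 under the fold limit and an adjusted p from 0.0211 to 0.173 over all alternatives in limma, edgeR or DESeq2, and it made up most of the list's sum of 66799, 59404 and 61886 in WT cells, against 63089, 58441 and 57241 in UTX TCD cells. *Sox13* rose from 1860, 1672 and 1788 in WT to 5266, 5192 and 5127 in UTX TCD cells, and *Trdv4* from 87.2, 88.9 and 101 to 355, 263 and 176. Neither was highest in UTX TCD library 3, unlike *Ccr2* and *Ccr6*, and the part of such cells was not tested. Whether the reads of *Trdc* came from γδ T cells or from the sorted CD8+ T cells themselves was not tested either, so its level is no measure of γδ T cells here. The 5 NK cell markers summed to 201, 230 and 143 in WT cells, against 216, 157 and 205 in UTX TCD cells, with *Klre1* called higher and *Ncr1* at no more than 7 reads. The 6 dendritic cell markers summed to 420, 404 and 355 in WT cells, against 468, 459 and 754 in UTX TCD cells, where *Cd74* was the most abundant and highest in UTX TCD library 3, *H2-Ab1* was called higher and *Itgax* lower. The call of *H2-Ab1* was lost with no filter on low values and without WT library 3, UTX TCD library 1 or UTX TCD library 2, with adjusted p from 0.0545 to 0.107 in limma. The 4 plasmacytoid dendritic cell markers summed to at most 63.0 in any library, and *Klk1* had no read. Of the 7 progenitor and sort markers none was called, though *Myb*, at a log2 fold change of 0.48, and *Cd44*, at 0.17, passed the adjusted p alone with all libraries, and *Slamf6* (Ly108) was counted between 23305 and 36665 with overlapping groups. *Myb* was called in edgeR, at 0.50, with libraries scaled to equal sums, at 0.55, and without WT library 2, UTX TCD library 1 or UTX TCD library 2, at 0.62, 0.56 and 0.60. It missed the adjusted p in DESeq2, at 0.0911, and in limma with the replicate number as a term, at 0.0589. The adjusted p from limma was also missed without WT library 1, WT library 3 or UTX TCD library 3, at 0.113, 0.112 and 0.0848. In the last case the log2 fold change of *Myb* was 0.29. The adjusted p of *Cd44* ranged from 0.0135 to 0.102 over all alternatives in limma, edgeR or DESeq2.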

How the data were processed

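RNA-seq and ATAC-seq of sorted CD8+ T_prog_ cells were represented by 3 libraries per genotype in each assay, grouped by the genotype in the sample titles. For RNA-seq, the authors aligned reads to mm10 with HISAT2 (2.2.1 in the submitters' processing notes), counted them per gene with featureCounts and deposited a normalized signal, the count divided by 1 DESeq2 size factor per library. The gene annotation, the strand setting and the treatment of reads matching several genes are not given in the sources used here. For ATAC-seq, the authors used Cutadapt for trimming, Bowtie2 for alignment, Picard to remove duplicates from the uniquely aligned reads, MACS2 for peaks, DiffBind to compare genotypes and HOMER to annotate. The values used were the deposited mean log2 concentrations of each genotype, which carry no replicate spread, and a shift of reads for the transposase is not stated. Further deposited columns hold the authors' own fold changes, standard errors, p-values and FDR, and these were not used, except that all listed peaks were checked to have an FDR under 0.05.

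Whole reads were recovered for 100% of RNA-seq values, within 0.01 of a whole number. Testing used limma 3.58.1 (lmFit, eBayes with trend) in R 4.3.3, kept genes averaging 10 or more normalized counts, worked on log2 values after adding 1, and had no term but genotype, with Benjamini-Hochberg adjustment over all genes tested. The scripts were tested on simulated reads. As alternatives, edgeR 4.0.16 and DESeq2 1.42.0 were run on these reads and called 2541 and 2422 genes. Other alternatives changed the pseudocount, the filter, the scaling, the fold limit and the peaks taken, added the replicate number as a term, or left out each library. Levels per kilobase used the union of exons in GENCODE M21. Positions and sequences came from RefSeq GRCm38.p6, the same build as mm10, read with pysam 0.24.0.

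The shallowest library had 61512402 counted reads and the deepest 193568919. A floor of 3 reads speaks only of counting error, because no molecular identifiers were used. For RNA-seq neither the labels nor the methods say that libraries came from separate animals, so p-values measure the spread between these libraries. The receptors and the gene lists were chosen with earlier results of these data known. The genes named are the 9 receptors, genes of the lists (other receptors, ligands, signaling genes, transcription factors and cell type markers), *Kdm6a* and genes within 50 kb of a receptor, and for peaks those at promoters and the largest difference at each receptor, with further peaks added after their values were seen. Some items of these lists are counted but not reported here by name.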

Additional observations from a re-analysis of the deposited data

How the results depend on the processing

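The direction of each of the 8 tested receptors was the same under all alternatives in which it was tested, which for *Ccr6* leaves out a minimum mean of 50, and so was the call or its absence except for *Ccr2*, which passed in limma with all libraries and missed the threshold without WT library 1 or WT library 2. Over the libraries left out in turn, the log2 fold change of *Ccr2* ranged from 0.97 to 1.94. Over all alternatives run it ranged from -2.46 to -2.06 for *Ccr4*, from 1.31 to 1.53 for *Cxcr5*, from -1.23 to -0.97 for *Cxcr6* and from -0.94 to -0.63 for *Cxcr4*. For *Cxcr3* it ranged from 0.15 to 0.41 and for *Ccr9* from -0.39 to -0.18, with adjusted p down to 0.0406 and 0.0118 but under the fold limit throughout. The number of receptors called was 5 in every setting except without WT library 1 or WT library 2, where it was 4. Without the filter, *Cx3cr1* had a log2 fold change of -1.56 with an adjusted p of 0.176 in limma. Scaling each library to the same sum left 6 rather than 7 receptors whose groups did not overlap, since *Ccr9* then overlapped.

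The count of 23 more accessible peaks fell to 15 within 50 kb of the start site and to 13 with an absolute difference over 0.5, since fewer peaks were then taken, while the 16 less accessible peaks became 12 in both cases. Genes called numbered 1518 higher and 1020 lower over all genes, and 1727 and 853 when libraries were scaled to equal sums. With a replicate block, the replicate number as a term, 2474 genes were called against 2538 without it, and 5 receptors were called. The deviations of same-numbered libraries from their group means correlated at 0.305, -0.2 and 0.0897, so not every library correlated best with its own number, and the numbers were not taken as pairs. The log2 fold changes under the block were 1.45 for *Cxcr5*, -1.07 for *Cxcr6* and -2.31 for *Ccr4*.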
